A study of Homo sapiens with 10 samples.

Results

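The collagen, laminin and integrin genes of ESI017 cells were followed through activation of the WNT pathway. Members were all gene symbols for collagen chains (COL), laminin chains (LAMA, LAMB, LAMC) and integrin alpha and beta subunits (ITGA, ITGB), together with fibronectin (FN1) and the nidogens NID1 and NID2. The pattern gave 85 of the 35940 symbols in the deposited table, whatever their values. They comprise 11 fibril collagens, 33 other collagens, 15 laminin, nidogen and fibronectin genes, 18 integrin alpha genes and 8 integrin beta genes. Enough reads for a test were found for 68 members, and 17 were too low.

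ESI017 is an established human embryonic stem cell line, labelled as wild type (WT). RNA was sequenced after 6 h and 18 h of recombinant WNT3A (300 ng/ml), after 6 h and 18 h of CHIR99021 (8 µM), and in cells kept in mTeSR1, the defined medium that all groups share. WNT3A is a secreted ligand of the canonical pathway, and CHIR99021 is a small molecule that inhibits GSK3 and so stabilises β-catenin. Each of the 5 groups had 2 libraries. WNT3A at both times, CHIR99021 at 6 h and mTeSR1 had a library from each of 2 biological repeats, while both CHIR99021 18 h libraries came from repeat 2. No time in culture is labelled for mTeSR1, and the labels list no solvent control for CHIR99021, so neither can be told apart from treatment. All cells are of 1 line. The labels do not say whether the 2 CHIR99021 18 h libraries are separate wells, cultures or extractions. P-values therefore measure only the spread between these libraries. For CHIR99021 at 18 h the 2 libraries differed widely in primitive streak markers, whose levels are given below. The source of the spread between them was not tested.

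Collagens are secreted as helical trimers. Type I chains, with type III and type V, build fibrils in connective tissue, whereas type IV chains form the sheet-like network of basement membranes. Laminins are heterotrimers of an alpha, a beta and a gamma chain that polymerise on the cell surface, and nidogens link them to type IV collagen. Integrins are alpha-beta receptors that bind these proteins and couple them to the actin cytoskeleton. Human pluripotent stem cells depend on them for attachment: laminins that carry the alpha-5 chain, read by integrin α6β1, support their growth, and vitronectin is bound through αVβ5.

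Levels are given as CPM, estimated counts scaled to a library total of 1e+06 after trimmed-mean (TMM) scaling. Library totals were 1.66e+07 to 2.67e+07 estimated counts, and 3 counts corresponded to 0.112 to 0.18 CPM. The members together took between 0.362% and 0.485% of counts. Transcript length tracked with deviation from the mean in 2 libraries, mTeSR1 replicate 2 (Spearman's rho 0.349 across genes) and WNT3A 6 h replicate 2 (0.448), against -0.293 to -0.013 in the other 8. Genes are not independent replicates, and these coefficients are descriptions. The members are long genes, with a median longest transcript of 6.15 kb against 3.62 kb for all tested symbols. Each member that edgeR called in the main fit is therefore also given without both libraries. Summed pluripotency markers (10 of 10 tested) stood at 6310 to 7670 CPM in all groups. LIN28A was the largest part, at 2100 to 3180 CPM, so the sum does not show each marker. At 18 h 5 log2 changes were positive and 5 negative for WNT3A, and 3 and 7 for CHIR99021, with 0 called. PRDM14 had 16.6 and 20.8 CPM after WNT3A for 18 h and 44.6 and 11.4 CPM after CHIR99021 for 18 h, against 96.2 and 139 CPM in mTeSR1.

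Type IV collagen genes lie in divergent pairs, and the sequence between the starts is shown for COL4A1 and COL4A2 because the text returns to the ratio of these chains. The stretches upstream of COL4A5 and COL8A2 are shown as those of the X-linked pair and of a member that fell. Sequences are RefSeq's on GRCh38.p14, 5′ to 3′, with matches in capitals to CCAAT or to the GC box GGGCGG on either strand. The COL4A1-COL4A2 interval, chr13:110307158-110307283 on the plus strand, holds 126 bases, 1 CCAAT and 1 GC box. The COL4A5 stretch, chrX:108439588-108439837 on the plus strand, holds 250 bases with 2 CCAAT matches. The COL8A2 stretch, chr1:36125223-36125472 on the minus strand, has 250 bases with 7 GC box matches, of which the last pair overlap.
COL4A1-COL4A2: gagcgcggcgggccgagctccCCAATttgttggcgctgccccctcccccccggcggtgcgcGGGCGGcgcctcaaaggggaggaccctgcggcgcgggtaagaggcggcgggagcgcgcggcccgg
COL4A5: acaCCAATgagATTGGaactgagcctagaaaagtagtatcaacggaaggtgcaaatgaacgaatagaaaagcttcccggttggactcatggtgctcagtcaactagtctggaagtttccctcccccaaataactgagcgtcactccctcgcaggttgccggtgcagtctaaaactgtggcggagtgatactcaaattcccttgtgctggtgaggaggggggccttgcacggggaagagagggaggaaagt
COL8A2: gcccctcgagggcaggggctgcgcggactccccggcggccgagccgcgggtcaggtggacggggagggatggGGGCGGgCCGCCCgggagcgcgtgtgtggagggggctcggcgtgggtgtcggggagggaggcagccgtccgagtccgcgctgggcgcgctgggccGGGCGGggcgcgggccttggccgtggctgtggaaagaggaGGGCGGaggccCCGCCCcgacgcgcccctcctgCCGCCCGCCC

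In the 250 bases upstream of the start, a CCAAT was found for 19 of the 61 members with an entry (31.1%), against 32% of 35116 windows. GC boxes were found for 38 of them (62.3%), against 42.6% of windows. The TCF/LEF words ATCAAAG or TTCAAAG were found for 4 members (6.56%), against 5.94% of windows. Those members were COL13A1, COL26A1, ITGAM and LAMA2. In the windows of 126 bases next to the start, CCAAT was present in 21.1% and a GC box in 34.6% of all windows. The 61 members have 80 windows, and a member was counted if any of its windows matched. The shares of all windows count each window singly, so the member shares are not a like measure. Members with more windows had more chances of a match. A match describes these letters only.

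Over all 10 libraries 10 members stayed at 100 CPM or more: COL18A1, COL26A1, COL4A1, COL4A2, COL6A1, LAMA5, LAMC1, ITGA6, ITGB1 and ITGB5. Another 21 stayed between 10 CPM and that level in their lowest library, and 23 stayed under 1 CPM in every library. COL19A1, ITGB6 and LAMB4 had 0 counts in all libraries, which allows up to 0.18 CPM, counting error only. COL3A1, the type III fibril chain, had 13 counts in all over the 10 libraries. Per kb of longest transcript, mTeSR1 means were 80.3 CPM for COL18A1, 70.3 for ITGB1, 68.6 for ITGB5, 58.6 for ITGA6, 48.8 for COL26A1, 40.1 for COL6A1 and 37.1 for LAMA5, against 25.7 for COL1A1 and 13.9 for COL1A2.

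**Figure D1:**
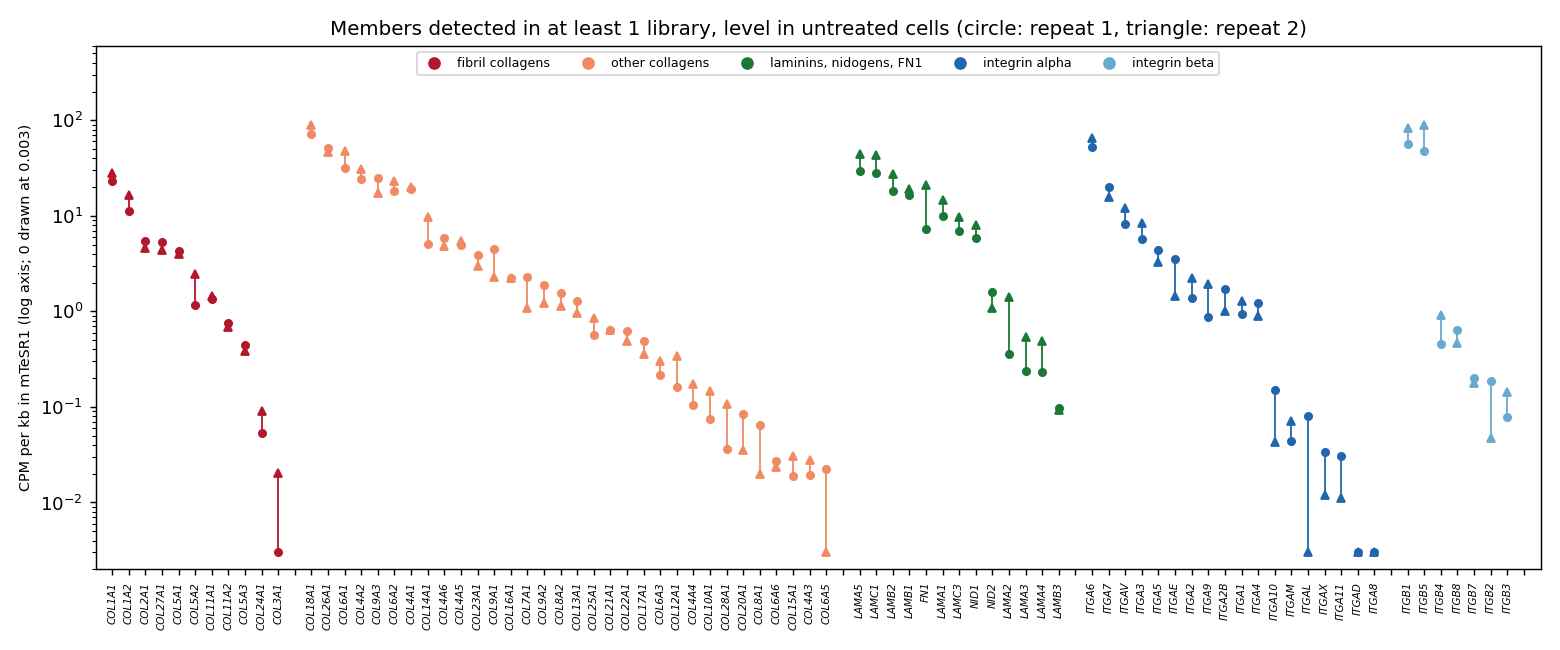
Level of members detected in at least 1 library, as CPM per kb of longest transcript (log axis), in the 2 mTeSR1 libraries, by role. COL18A1, ITGB1, ITGB5 and ITGA6 stand at the top, and COL3A1, ITGAD and ITGA8 at the bottom, with 0 drawn at the lower edge.

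Few members were called by edgeR's quasi-likelihood test, with Benjamini-Hochberg adjustment over 15251 symbols, at an adjusted p under 0.05. A member without a call may still have changed. Of simulated 2-fold changes at 18 h, the fit recovered 54% for WNT3A and 47.5% for CHIR99021. After WNT3A for 18 h, edgeR called 2 of 68 members (2.94%), against 2.1% of all symbols. COL1A2 rose and COL1A1 fell, where 1.04% of all symbols rose and 1.06% fell. After CHIR99021 for 18 h it called 3 of 68 (4.41%), against 2.78% of all symbols: COL1A1, COL5A2 and COL8A2 fell, where 1.15% of all symbols rose and 1.63% fell. These shares of edgeR calls lie near those of all symbols. At an unadjusted p under 0.05 there were 20 members for WNT3A (29.4%), against 13.6% of all symbols. For CHIR99021 there were 26 (38.2%), against 19.6%. DESeq2 called 6 members for WNT3A (8.82%, against 5.25% of all symbols) and 9 for CHIR99021 (13.2%, against 6.02%). With the repeat as a block, 5 members (7.35%) were called for WNT3A at 18 h, against 4.92% of all symbols. Without it, 2 members (2.94%) were called for CHIR99021 at 18 h, against 1.19% of all symbols. With an offset for transcript length and the block, 10 members (14.7%) were called for WNT3A at 18 h, against 7.55% of all symbols. For CHIR99021 that fit called 8 (11.8%), against 5.2%. The 10 were COL1A1, COL1A2, COL4A1, COL4A6, COL5A2, FN1, ITGA3, ITGA9, ITGAV and LAMB1. The 8 were COL1A1, COL4A5, COL4A6, COL5A2, COL8A2, ITGA3, ITGA9 and LAMB1. Leaving out both length-trend libraries keeps mTeSR1 only in repeat 1, while CHIR99021 18 h is only in repeat 2. Without both length-trend libraries 1 member was called for each, COL1A2 for WNT3A and LAMB1 for CHIR99021, against 0.821% and 0.616% of all symbols.

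At 6 h edgeR called 0 members for WNT3A, where 0.433% of all symbols were called, and 0 for CHIR99021, where 0.0197% were. At an unadjusted p under 0.05 there were 2 members for WNT3A (2.94%), against 6.16% of all symbols, and 3 for CHIR99021 (4.41%), against 4.74%. DESeq2 called 0 members for both, with 1.63% and 0.426% of all symbols. With the repeat as a block, edgeR also called 0 members for WNT3A at 6 h, where 1.1% of all symbols were called, and 0 for CHIR99021, where 0.138% were. The median log2 change of the tested members against mTeSR1 was -0.08 for WNT3A 6 h, -0.04 for WNT3A 18 h, -0.23 for CHIR99021 6 h and -0.18 for CHIR99021 18 h. Over all symbols the median lay between 0.006 and 0.019. For CHIR99021 at 6 h, 51 of the 68 members had a negative value, none of which passed the test by edgeR or DESeq2.

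**Figure D2:**
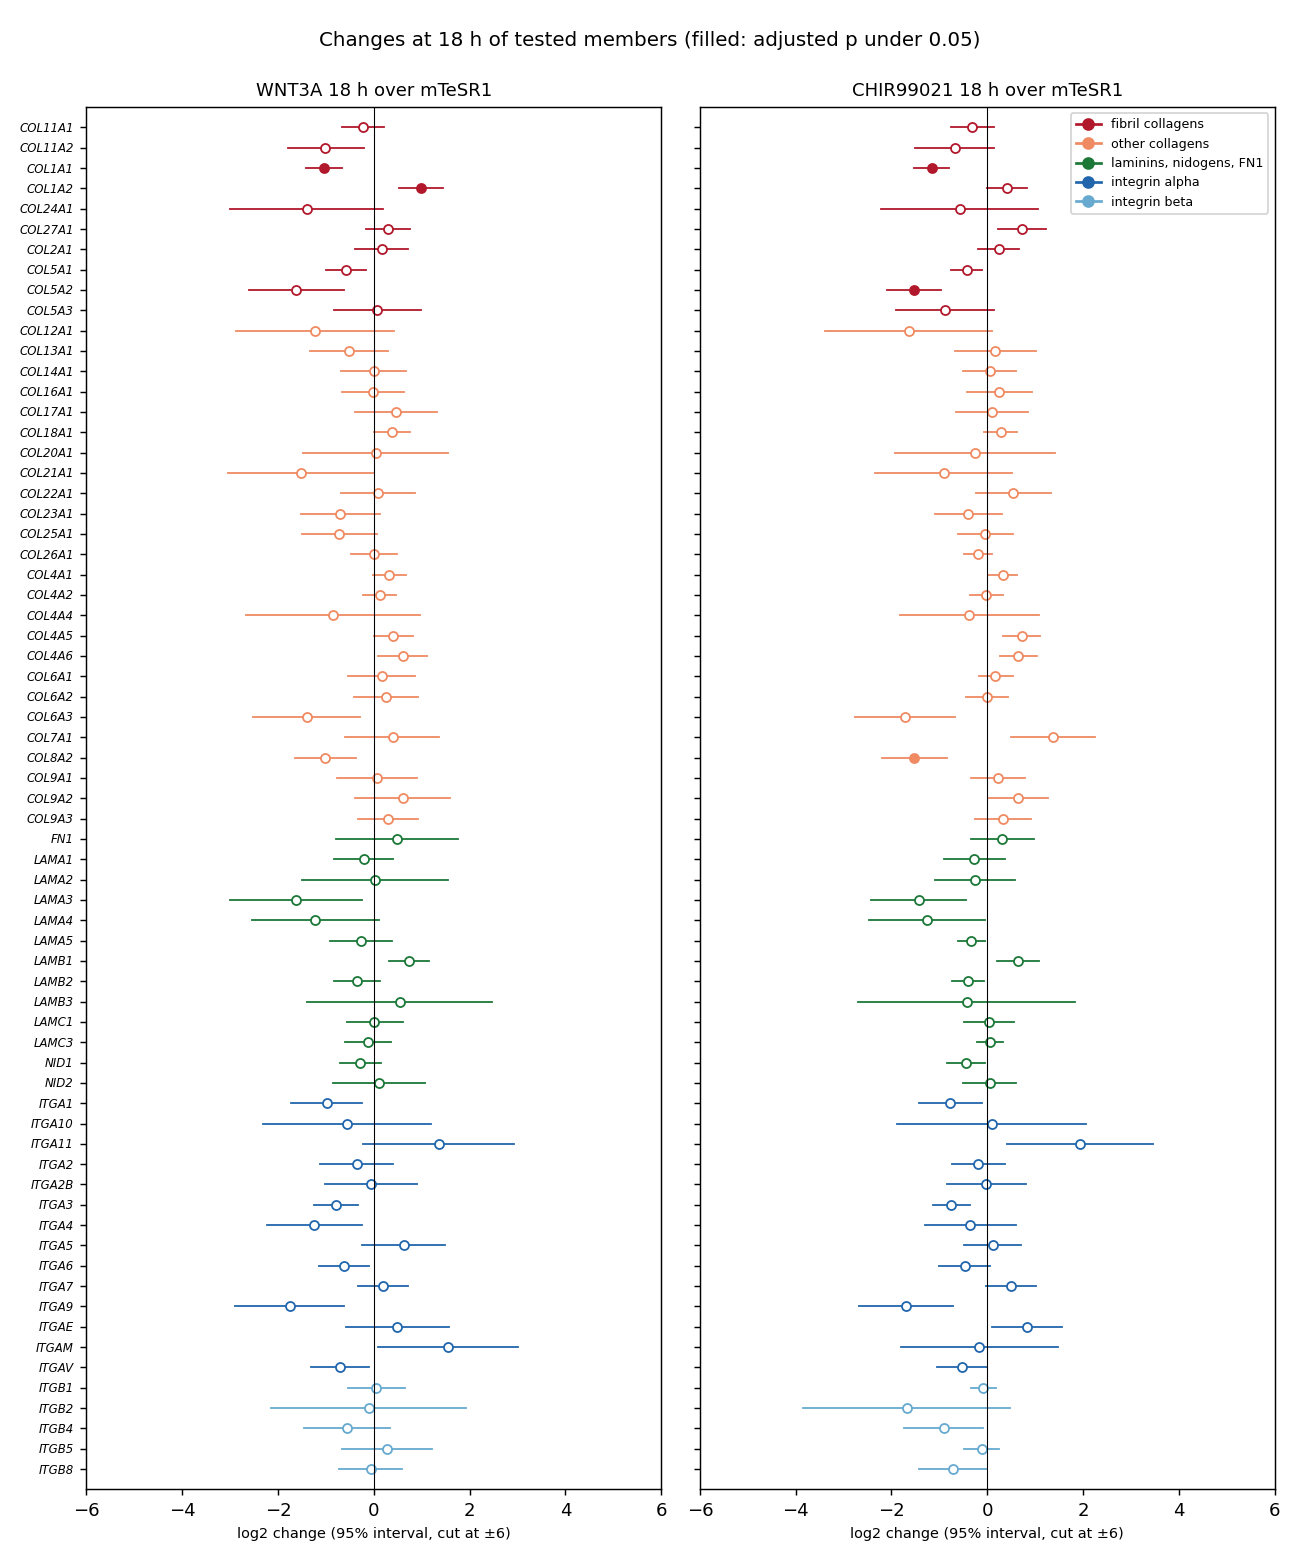
Log2 change of tested members after 18 h of WNT3A (left) and of CHIR99021 (right) over mTeSR1, with 95% intervals as lines and colours by role. Filled points passed at an adjusted p under 0.05: COL1A1 and COL1A2 on the left, COL1A1, COL5A2 and COL8A2 on the right.

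Among fibril collagens, the type I chains moved in opposite directions after WNT3A for 18 h, and for CHIR99021 only COL1A1 passed the test. COL1A1 (ENSG00000108821, GRCh38 chromosome 17, 50183289 to 50201632, minus strand) encodes the alpha-1 chain, of which the usual type I trimer holds a pair. It stood at 155 and 153 CPM after WNT3A for 6 h, 89.6 and 78.2 CPM after WNT3A for 18 h, 129 and 112 CPM after CHIR99021 for 6 h, and 84.7 and 68.4 CPM after CHIR99021 for 18 h, against 157 and 188 CPM in mTeSR1. All 18 h libraries lay below every library of the other groups. COL1A1 fell after 18 h of WNT3A by 1.04 on the log2 scale (SE 0.16, edgeR adjusted p = 0.017), with 83.9 ± 8.05 CPM against 173 ± 22.5 CPM in mTeSR1 (SD, n = 2 each). After CHIR99021 for 18 h it fell by 1.16 (SE 0.16, adjusted p = 0.013), with 76.6 ± 11.5 CPM. At 6 h the log2 changes were -0.17 for WNT3A and -0.52 for CHIR99021 (adjusted p = 1.00 and 0.95).

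COL1A2 (ENSG00000164692, chromosome 7, 94394561 to 94431232, plus strand) encodes the alpha-2 chain of the same trimer. Its levels were 113 and 119 CPM after WNT3A for 6 h, 165 and 166 CPM after WNT3A for 18 h, 71.1 and 80.4 CPM after CHIR99021 for 6 h, and 103 and 133 CPM after CHIR99021 for 18 h, against 67.5 and 99.8 CPM in mTeSR1. Both WNT3A 18 h libraries lay above all others, and the WNT3A 6 h and CHIR99021 18 h libraries lay above those of mTeSR1. COL1A2 rose after WNT3A for 18 h by 0.99 (SE 0.20, edgeR adjusted p = 0.048), with 166 ± 0.733 CPM against 83.6 ± 22.8 CPM in mTeSR1 (SD, n = 2 each). For CHIR99021 at 18 h the log2 change was 0.41 (adjusted p = 0.25). The difference of CHIR99021 minus WNT3A at 18 h was -0.60 for COL1A2, with a 95% interval of -1.01 to -0.18 and an edgeR adjusted p of 1.00.

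The calls for type I chains depended on single libraries, and that of COL1A2 also on scaling. Without WNT3A 18 h replicate 1, replicate 2 or mTeSR1 replicate 2, the COL1A1 log2 change for WNT3A was -1.14, -0.95 and -0.90 with adjusted p of 0.081, 0.16 and 0.10. For CHIR99021 it was -0.90 (adjusted p = 0.25) without mTeSR1 replicate 2 and -1.01 (adjusted p = 0.11) without CHIR99021 18 h replicate 2. COL1A2 also lost its call under RLE scaling (adjusted p = 0.052), upper-quartile scaling (0.054), the identifier with the highest total (0.050) and a fit of only the 2 groups (0.072). It was lost without 7 of the libraries, with log2 changes of 0.72 (mTeSR1 replicate 1, adjusted p = 0.17) to 0.99. Those others were both WNT3A 18 h libraries (adjusted p = 0.19 and 0.24), both CHIR99021 6 h libraries (0.095 each) and both CHIR99021 18 h libraries (0.056 each). With both libraries of the length trend left out, COL1A1 gave -0.90 (adjusted p = 0.062) for WNT3A and -0.83 (adjusted p = 0.067) for CHIR99021, and COL1A2 gave 1.30 (adjusted p = 0.033) for WNT3A. In that fit mTeSR1 and WNT3A 6 h keep 1 library, which is assumed to vary like the other groups. The mTeSR1 library kept is of repeat 1, while both CHIR99021 18 h libraries are of repeat 2. The block for repeat then rests on WNT3A 18 h and CHIR99021 6 h, so the part of the length trend cannot be told apart. No alternative that was run turned the sign of these changes.

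**Figure D3:**
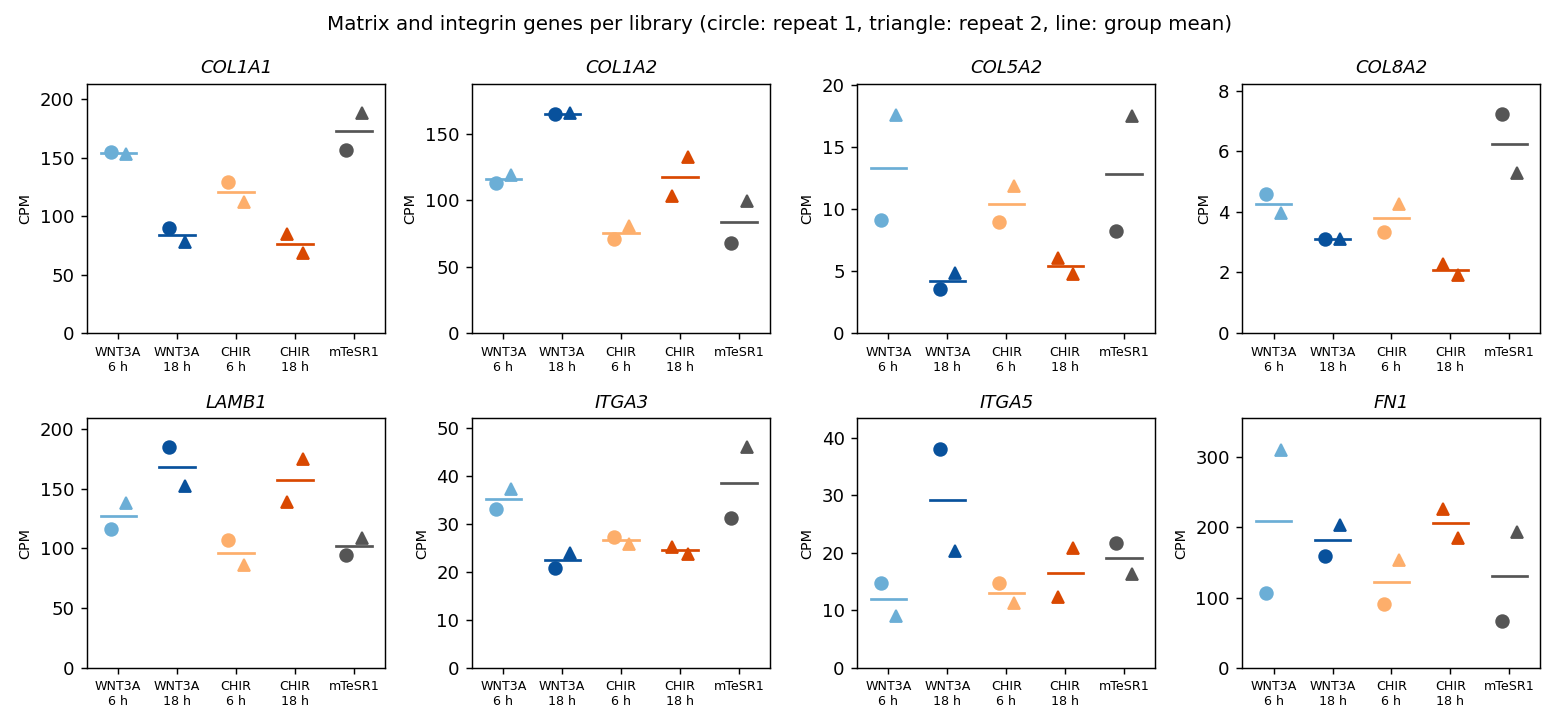
CPM (linear axes from 0) of 8 members in each of the 10 libraries by group, with circles for repeat 1, triangles for repeat 2 and lines for group means. COL1A1 is below 90 CPM in all 18 h libraries, COL1A2 is at 165 and 166 CPM after WNT3A for 18 h, and FN1 is higher in repeat 2 in each group that was sampled in both repeats.

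The ratio of COL1A2 to COL1A1 within a library does not depend on scaling. It was 0.733 and 0.78 after WNT3A for 6 h, 1.84 and 2.12 after WNT3A for 18 h, 0.553 and 0.717 after CHIR99021 for 6 h, and 1.21 and 1.95 after CHIR99021 for 18 h, against 0.431 and 0.529 in mTeSR1. Every treated library had a higher ratio than both mTeSR1 libraries, and in the 18 h libraries the alpha-2 chain had more counts than the alpha-1 chain. The ratios were looked at after the levels were known and are descriptions, with no test. Type I was not the only pair with a wide range. ITGA5 to ITGB1 had a 4.91-fold range, COL5A2 to COL5A1 4.35-fold, ITGAV to ITGB5 3.33-fold and LAMB1 to LAMB2 2.82-fold. Some other pairs of chains had a narrower ratio. COL4A2 to COL4A1 ranged from 1.11 to 1.51 over all 10 libraries (1.36-fold) and COL6A2 to COL6A1 from 0.349 to 0.463 (1.33-fold), against 4.93-fold for type I. The divergent pair COL4A6 to COL4A5 ranged from 0.822 to 1.57 (1.91-fold), and LAMB2 to LAMC1, whose genes are on different chromosomes, had a 1.49-fold range. Whether counting used strand is not given in the sources, and the COL4A1 and COL4A2 models overlap at their starts, so reads there cannot be told apart.

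**Figure D4:**
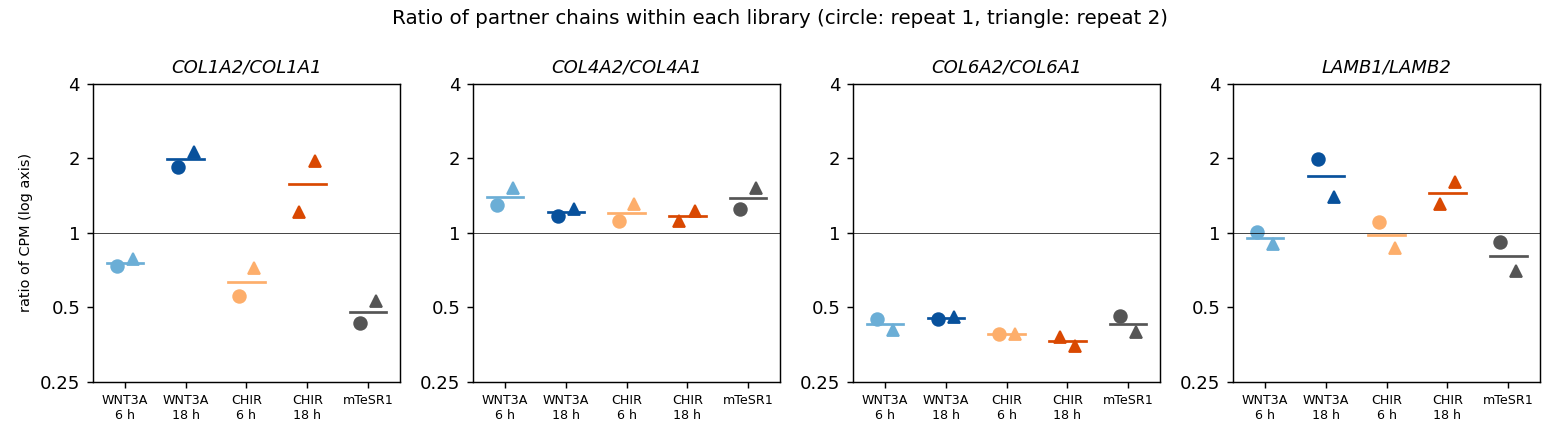
Ratio of CPM of chain genes within each library (log axis), with circles for repeat 1, triangles for repeat 2 and lines for group means. COL1A2 over COL1A1 is above 1 in all 18 h libraries and 0.431 and 0.529 in mTeSR1, while the COL4A2 over COL4A1 and COL6A2 over COL6A1 ratios keep a narrow range.

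Type V chains nucleate and limit the width of type I fibrils. COL5A2 (ENSG00000204262, chromosome 2, 189031896 to 189225312, minus strand) had 9.11 and 17.6 CPM after WNT3A for 6 h, 3.53 and 4.84 CPM after WNT3A for 18 h, 8.98 and 11.9 CPM after CHIR99021 for 6 h, and 6.09 and 4.74 CPM after CHIR99021 for 18 h, against 8.21 and 17.5 CPM in mTeSR1. All 18 h libraries were below all others, and the highest values were those of the 2 libraries with the length trend. COL5A2 fell by 1.53 (SE 0.25, edgeR adjusted p = 0.019) after CHIR99021 for 18 h, in a fit with the repeat as a block. The log2 change was -1.25 (adjusted p = 0.24) without the block and -1.02 (adjusted p = 0.26) without both length-trend libraries. It was -1.22 without mTeSR1 replicate 2 (adjusted p = 0.39), -1.70 without mTeSR1 replicate 1 (0.055) and -1.36 without CHIR99021 18 h replicate 2 (0.16).

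For WNT3A at 18 h, COL5A2 had a log2 change of -1.62 (edgeR adjusted p = 0.12), and with the repeat as a block -1.55 (adjusted p = 0.010). COL5A1, the partner chain, named after its values were seen, had 31.5 ± 1.77, 23.3 ± 4.28, 29 ± 4.79 and 23.9 ± 1.07 CPM after WNT3A 6 h, WNT3A 18 h, CHIR99021 6 h and CHIR99021 18 h, against 35.0 ± 2.22 CPM in mTeSR1 (SD, n = 2 each). Its log2 change for WNT3A at 18 h was -0.58 (adjusted p = 0.17) and, with the block, -0.59 (adjusted p = 0.041). COL27A1, a fibril chain of cartilage, was the third fibril gene by level per kb, with 57.8 and 68.7 CPM after CHIR99021 for 18 h against 41.6 and 34.1 CPM in mTeSR1 (log2 change 0.73, adjusted p = 0.13). Of the 10 fibril genes tested, 1 rose and 1 fell after WNT3A for 18 h and 2 fell after CHIR99021 for 18 h, where 1.04% and 1.06% of all symbols rose and fell for WNT3A and 1.63% fell for CHIR99021. The group had medians of -0.40 and -0.51 on the log2 scale against 0.019 and 0.016 for all symbols. COL11A2 has 6 identifiers whose counts were summed, because copies on alternate haplotypes can divide its reads, and its level of 1.93 to 4.81 CPM is uncertain.

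Of the 25 other collagens tested, 1 passed in any comparison, a fall after CHIR99021 for 18 h, where 1.63% of all symbols fell. COL8A2 (ENSG00000171812, chromosome 1, 36095236 to 36125220, minus strand), a short-chain network collagen of the cornea and vessel wall, had 4.58 and 3.97 CPM after WNT3A for 6 h, 3.11 CPM in both libraries after WNT3A for 18 h, 3.35 and 4.26 CPM after CHIR99021 for 6 h, and 2.27 and 1.92 CPM after CHIR99021 for 18 h, against 7.22 and 5.28 CPM in mTeSR1. Every treated library lay below both mTeSR1 libraries. COL8A2 fell by 1.53 (SE 0.30, edgeR adjusted p = 0.037) after CHIR99021 for 18 h, a call lost in a fit of only the 2 groups. For WNT3A at 18 h the log2 change was -1.01 (adjusted p = 0.13). The call was lost without any of 8 libraries: both of mTeSR1, WNT3A 6 h, CHIR99021 6 h and CHIR99021 18 h, with log2 changes of -1.83 to -1.34 and adjusted p of 0.054 to 0.25. Without both length-trend libraries it was -1.96 (adjusted p = 0.088). Its upstream stretch is the GC-rich one printed above, at 82.0% G and C against a median of 58.0% over all windows.

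COL4A1 and COL4A2 encode the most widespread type IV chains. COL4A1 had 132 ± 11.6, 163 ± 17, 125 ± 19.6 and 154 ± 4.93 CPM after WNT3A 6 h, WNT3A 18 h, CHIR99021 6 h and CHIR99021 18 h, against 130 ± 4.28 CPM in mTeSR1 (SD, n = 2 each). COL4A2 had 183 ± 3.93, 197 ± 11.6, 149 ± 7.06 and 180 ± 17.6 CPM in the same order, against 181 ± 30.2 CPM in mTeSR1. The 18 h groups overlapped mTeSR1 for COL4A2 and not for COL4A1, and neither gene passed the test. With the length offset and the block, COL4A1 was called for WNT3A at 18 h over mTeSR1, at 0.43 (edgeR adjusted p = 0.040), and over 6 h, at 0.48 (0.041).

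COL4A5 and COL4A6 encode the alpha-5 and alpha-6 chains, and their starts on the X chromosome lie 379 bases apart. COL4A5 had 33.0 and 35.9 CPM after WNT3A for 6 h, 40.3 and 49.4 CPM after WNT3A for 18 h, 39.0 and 41.5 CPM after CHIR99021 for 6 h, and 49.8 and 67.4 CPM after CHIR99021 for 18 h, against 32.4 and 35.1 CPM in mTeSR1. COL4A6 had 51.7 and 42.1, 62.4 and 46.8, 44.2 and 34.1, and 42.5 and 57.9 CPM in those groups, against 39.1 and 33.0 CPM in mTeSR1. All 18 h libraries were above both mTeSR1 libraries for each gene. The log2 changes for CHIR99021 at 18 h were 0.72 for COL4A5 (SE 0.17, edgeR adjusted p = 0.066) and 0.65 for COL4A6 (SE 0.17, adjusted p = 0.083), and DESeq2 gave adjusted p of 0.016 and 0.035. Without CHIR99021 18 h replicate 1, and with the length offset and the block, edgeR called both.

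COL18A1, a basement membrane collagen that releases endostatin, was the most abundant member per kb. It had 534 and 483 CPM after WNT3A for 6 h, 622 and 753 CPM after WNT3A for 18 h, 449 and 505 CPM after CHIR99021 for 6 h, and 649 and 697 CPM after CHIR99021 for 18 h, against 474 and 584 CPM in mTeSR1. All 18 h libraries were above all others, with log2 changes of 0.38 for WNT3A and 0.28 for CHIR99021 (edgeR adjusted p = 0.36 and 0.32). COL26A1 had 112 and 116 CPM after CHIR99021 for 18 h, against 154 and 141 CPM in mTeSR1, and COL6A1, a chain of the microfibrillar type VI trimer, had 244 and 211 CPM against 135 and 204 CPM. Neither pair of groups overlapped, with log2 changes of -0.20 and 0.17 that did not pass the test, and the other groups of both genes overlapped mTeSR1. Both CHIR99021 18 h libraries are of repeat 2, where COL26A1 was lower and COL6A1 higher than in repeat 1 (log2 -0.36 and 0.56). The lack of overlap thus goes in the direction of the repeats. COL7A1, the chain of epidermal anchoring fibrils, was named after its values were seen. It had 24.5 and 40.4 CPM after CHIR99021 for 18 h, against 21.4 and 10.1 CPM in mTeSR1. The log2 change was 1.38 (edgeR adjusted p = 0.10, DESeq2 adjusted p = 0.0044) and ranged from 0.61 to 1.7 over the alternatives.

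Of the 14 tested laminin, nidogen and fibronectin genes edgeR called 0 in any comparison with mTeSR1. At an unadjusted p under 0.05 there were 2 and 6 after 18 h of WNT3A and of CHIR99021, against 13.6% and 19.6% of all symbols. DESeq2 called 1, LAMB1, after WNT3A for 18 h, where it called 5.25% of all symbols. LAMB1 (ENSG00000091136, chromosome 7, 107923799 to 108003255), the beta-1 chain, had 116 and 138 CPM after WNT3A for 6 h, 185 and 152 CPM after WNT3A for 18 h, 107 and 86.0 CPM after CHIR99021 for 6 h, and 139 and 175 CPM after CHIR99021 for 18 h, against 94.5 and 109 CPM in mTeSR1. All 18 h libraries lay above mTeSR1 and above all 6 h libraries. Its log2 change was 0.73 for WNT3A (SE 0.19, edgeR adjusted p = 0.10, DESeq2 adjusted p = 0.020) and 0.64 for CHIR99021 at 18 h (SE 0.19, edgeR adjusted p = 0.12). Without both length-trend libraries the LAMB1 log2 change for CHIR99021 at 18 h was 1.03. That fit sets mTeSR1 of repeat 1 against CHIR99021 of repeat 2, so no comparison within a repeat is left.

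LAMB2, the alternative beta chain, had 115 and 153 CPM after WNT3A for 6 h, 93.7 and 109 CPM after WNT3A for 18 h, 96.9 and 99.5 CPM after CHIR99021 for 6 h, and 107 and 109 CPM after CHIR99021 for 18 h, against 104 and 156 CPM in mTeSR1. As a description with no test, the ratio of LAMB1 to LAMB2 was 1.98 and 1.40 after WNT3A for 18 h and 1.30 and 1.60 after CHIR99021 for 18 h, against 0.913 and 0.701 in mTeSR1. LAMB1 had more counts than LAMB2 in all 18 h libraries and fewer in both mTeSR1 libraries.

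The remaining abundant laminin chains had no call by edgeR or DESeq2. LAMC1, the common gamma chain, had 337 ± 108, 283 ± 15.6, 235 ± 10.5 and 311 ± 36.4 CPM after WNT3A 6 h, WNT3A 18 h, CHIR99021 6 h and CHIR99021 18 h, against 281 ± 86.9 CPM in mTeSR1 (SD, n = 2 each). LAMA5, the alpha chain that supports stem cell growth, had 289 and 432, 283 and 418, 263 and 337, and 392 and 401 CPM, against 334 and 513 CPM in mTeSR1. Within each repeat every treated LAMA5 library lay below that of mTeSR1, and its log2 change for CHIR99021 at 18 h was -0.33 (interval -0.61 to -0.05, edgeR adjusted p = 0.19). LAMA1, the alpha chain of embryonic basement membrane, had 149 ± 43.2, 111 ± 22.6, 101 ± 22.6 and 108 ± 9.21 CPM, against 128 ± 34.8 CPM in mTeSR1. Across repeats, every treated group of these 3 chains overlapped mTeSR1. Of the nidogens, NID1 ranged from 30.6 to 46.7 CPM and NID2 from 4.28 to 9.65 CPM over all 10 libraries.

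FN1 (ENSG00000115414, chromosome 2, 215360440 to 215436172) encodes fibronectin, a ligand of integrin α5β1. It had 107 and 311 CPM after WNT3A for 6 h, 160 and 203 CPM after WNT3A for 18 h, 90.3 and 153 CPM after CHIR99021 for 6 h, and 227 and 185 CPM after CHIR99021 for 18 h, against 67.1 and 194 CPM in mTeSR1. In each group sampled in both repeats the repeat 2 library was higher, and the groups overlapped. The log2 change was 0.48 for WNT3A at 18 h with an interval of -0.80 to 1.75 (edgeR adjusted p = 0.77), and the within-repeat values were 1.25 in repeat 1 and 0.06 in repeat 2. Without mTeSR1 replicate 1 it was -0.11, and with the length offset and the block FN1 was called, at 0.87 (adjusted p = 0.017).

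Integrin alpha genes had 0 calls by edgeR in the comparisons with mTeSR1, among 14 tested, with 7 and 6 at an unadjusted p under 0.05 after 18 h of WNT3A and of CHIR99021, where 13.6% and 19.6% of all symbols were. DESeq2 called ITGA3 and ITGA9 after both 18 h treatments. ITGA6, the laminin-binding subunit, had 264 and 367 CPM after WNT3A for 6 h, 236 and 190 CPM after WNT3A for 18 h, 287 and 231 CPM after CHIR99021 for 6 h, and 272 and 209 CPM after CHIR99021 for 18 h, against 294 and 365 CPM in mTeSR1. The 18 h libraries lay below both mTeSR1 libraries. Its log2 change was -0.63 for WNT3A (interval -1.14 to -0.11, edgeR adjusted p = 0.24) and -0.47 for CHIR99021 (interval -1.0 to 0.06, adjusted p = 0.29).

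ITGAV, the subunit of vitronectin receptors, had 44.0 and 76.3 CPM after WNT3A for 6 h, 42.8 and 43.8 CPM after WNT3A for 18 h, 60.0 and 55.6 CPM after CHIR99021 for 6 h, and 59.2 and 49.0 CPM after CHIR99021 for 18 h, against 57.4 and 84.2 CPM in mTeSR1. Both WNT3A 18 h libraries were below both mTeSR1 libraries, at a log2 change of -0.71 (edgeR adjusted p = 0.27). ITGA7, another laminin-binding subunit, ranged from 47.9 to 105 CPM, with its highest levels, 90.9 and 105 CPM, after CHIR99021 for 18 h. ITGA3, named after its values were seen, pairs with β1 as a laminin receptor and had 20.9 and 24.0 CPM after WNT3A for 18 h and 25.3 and 23.8 CPM after CHIR99021 for 18 h, against 31.3 and 46.1 CPM in mTeSR1. Its log2 change was -0.79 for WNT3A (edgeR adjusted p = 0.10, or 0.032 with the repeat as a block). For CHIR99021 it was -0.75 (adjusted p = 0.059). Over the alternatives the changes ranged from -1.06 to -0.48 for WNT3A and from -0.92 to -0.41 for CHIR99021.

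ITGA5, the fibronectin receptor subunit, had 14.7 and 9.07 CPM after WNT3A for 6 h, 38.0 and 20.4 CPM after WNT3A for 18 h, 14.8 and 11.2 CPM after CHIR99021 for 6 h, and 12.3 and 20.8 CPM after CHIR99021 for 18 h, against 21.7 and 16.4 CPM in mTeSR1. Within each repeat, WNT3A at 18 h was above WNT3A at 6 h, by 1.36 and 1.16 on the log2 scale. The log2 change from the earlier to the later WNT3A time was 1.30 (SE 0.38, edgeR adjusted p = 0.23), and with the repeat as a block 1.28 (adjusted p = 0.045). ITGA9, a receptor subunit for tenascin, was named after its values were seen. It had 3.25 and 3.22 CPM after WNT3A for 18 h and 5.13 and 2.71 CPM after CHIR99021 for 18 h, against 6.85 and 15.1 CPM in mTeSR1. The log2 changes were -1.76 and -1.69 (edgeR adjusted p = 0.13 and 0.082, DESeq2 adjusted p = 0.014 and 0.0066). Its higher mTeSR1 value is from a library with the length trend. Over the alternatives the changes ranged from -2.24 to -1.08 for WNT3A and from -2.22 to -0.69 for CHIR99021.

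Among integrin beta genes, ITGB1 and ITGB5 differed by repeat. ITGB1, the partner of most alpha subunits, had 198 and 285 CPM after WNT3A for 6 h, 242 and 310 CPM after WNT3A for 18 h, 209 and 299 CPM after CHIR99021 for 6 h, and 291 and 295 CPM after CHIR99021 for 18 h, against 216 and 316 CPM in mTeSR1. ITGB5, the β5 partner of αV, had 221 and 363, 250 and 472, 194 and 304, and 394 and 298 CPM in those groups, against 207 and 393 CPM in mTeSR1. For both genes all libraries of repeat 2 lay above all libraries of repeat 1. The log2 changes of ITGB1 at 18 h were 0.05 for WNT3A (interval -0.54 to 0.65) and -0.08 for CHIR99021 (interval -0.34 to 0.19). ITGB4, the hemidesmosome subunit, ranged from 2.03 to 5.39 CPM, with a log2 change of -0.91 for CHIR99021 at 18 h (edgeR adjusted p = 0.22). All 5 tested beta genes had a negative value for CHIR99021 at 18 h, with a median of -0.71 against 0.016 over all symbols, and the median for WNT3A at 18 h was -0.06. edgeR and DESeq2 called 0 of the 5 tested beta genes in any comparison. In edgeR, 2 had an unadjusted p under 0.05 after CHIR99021 for 18 h, against 19.6% of all symbols. After WNT3A for 18 h 0 had, against 13.6%.

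Between the 18 h and 6 h times, edgeR called 0 members for WNT3A, where 0.144% of all symbols were called, and 0 for CHIR99021, where 0.00656% were. At an unadjusted p under 0.05 there were 15 members for WNT3A (22.1%) and 18 for CHIR99021 (26.5%), against 13.2% and 6.85% of all symbols. DESeq2 called 4 (5.88%) and 1 (1.47%), against 2.71% and 0.872% of all symbols. COL1A1 had a log2 change of -0.87 for WNT3A (unadjusted p = 0.00049 and adjusted p = 0.083 in edgeR). COL5A2 had -1.31 for CHIR99021 (unadjusted p = 0.00073 and adjusted p = 0.22 in edgeR, DESeq2 adjusted p = 0.011). With the repeat as a block, 3 members (4.41%) were called for WNT3A, against 1.83% of all symbols. In that fit COL1A1 and COL5A2 were lower at 18 h, at -0.87 and -1.62 (edgeR adjusted p = 0.035 and 0.022). ITGA5 was higher in it. With the length offset as well there were 5 (7.35%), against 3.88%. Without both length-trend libraries LAMB1 was called for CHIR99021, at 0.87 (edgeR adjusted p = 0.043), where 0.186% of all symbols were called.

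CHIR99021 and WNT3A were compared at matched times, at their labelled doses of 8 µM and 300 ng/ml. edgeR called 0 of 68 members at 6 h, where 0.00656% of all symbols were called, and 0 at 18 h, where 0% were. At an unadjusted p under 0.05 there were 1 member (1.47%) at 6 h and 5 (7.35%) at 18 h, against 6.53% and 4.12% of all symbols. DESeq2 called 0 members at both times, with 0.197% and 0.059% of all symbols. At 18 h the difference of CHIR99021 minus WNT3A was -0.11 for COL1A1 (interval -0.49 to 0.26), 0.02 for COL5A2 (-0.57 to 0.61), -0.09 for LAMB1 (-0.52 to 0.35) and 0.15 for ITGA6 (-0.39 to 0.70), on the log2 scale. At 6 h it was -0.35 for COL1A1 (-0.72 to 0.01) and -0.62 for COL1A2 (-1.08 to -0.16, edgeR adjusted p = 0.69). An adjusted p above the threshold does not show that the agents act alike. The values against mTeSR1 share the mTeSR1 libraries, so their likeness is not a separate result.

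The repeats differed in many members. In the blocked fit 12 of 68 members (17.6%) differed between repeat 2 and repeat 1, against 5.96% of all symbols. In repeat 2, 2.32% of all symbols were higher and 3.64% lower. Higher members included LAMA2 (log2 1.23), FN1 (1.04), ITGB5 (0.80), COL5A2 (0.74), COL6A1 (0.56), LAMA5 (0.53), ITGB1 (0.49) and LAMC3 (0.36), with edgeR adjusted p of 0.0098 to 0.041. Lower members were COL9A2 and NID2 (-0.75 each) and COL26A1 (-0.36), with adjusted p of 0.036 to 0.047. Transcript length and mitochondrial share also differed between libraries: the share was 6.73% in mTeSR1 replicate 2 and 2.70% to 5.37% in the rest. Their part in these differences was not tested.

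**Figure D5:**
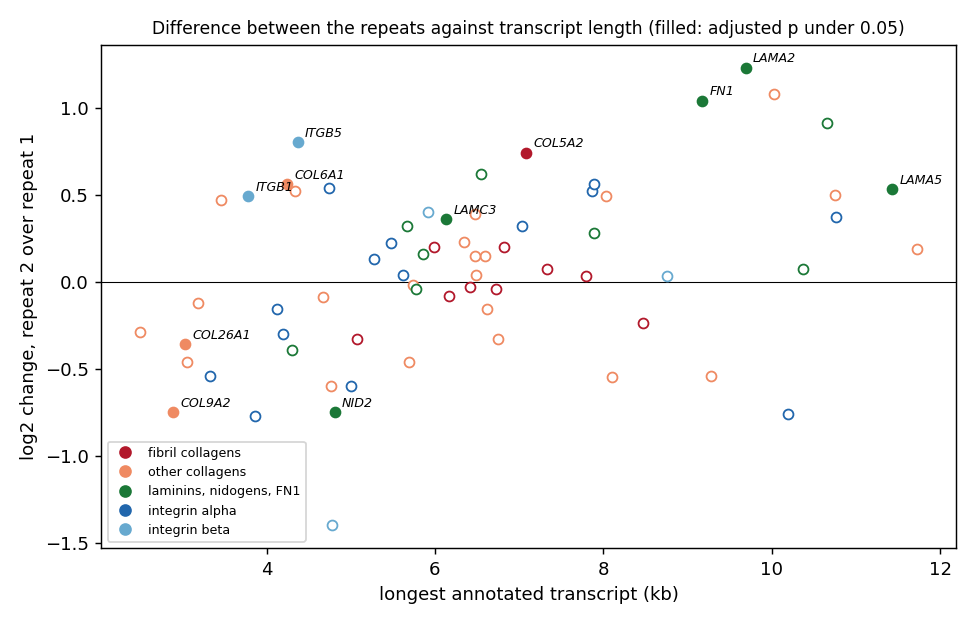
Log2 difference between repeat 2 and repeat 1 in the blocked fit, against the length of the longest annotated transcript in kb, for tested members by role. Filled and named points passed at an adjusted p under 0.05, with LAMA2 and FN1 highest, and COL9A2, NID2 and COL26A1 below 0.

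Genes that work with the module were read from lists of known function. Of 27 tested genes for collagen chain modification, folding and cross-linking, edgeR called 0 in all 8 comparisons. At an unadjusted p under 0.05 there were 4 and 6 after 18 h of WNT3A and of CHIR99021, against 13.6% and 19.6% of all symbols. Of 30 integrin adhesion genes, 1 rose after WNT3A at each time and 1 rose and 1 fell after CHIR99021 for 18 h. Over all symbols 1.04% rose after WNT3A for 18 h, and 1.15% rose and 1.63% fell after CHIR99021 for 18 h. After WNT3A for 6 h 0.433% were called in either direction. TNS3, a tensin of focal adhesions, had 136 and 158 CPM after WNT3A for 6 h, 124 and 143 CPM after WNT3A for 18 h, 98.0 and 104 CPM after CHIR99021 for 6 h, and 137 and 147 CPM after CHIR99021 for 18 h, against 44.8 and 60.9 CPM in mTeSR1. Every treated library lay above both mTeSR1 libraries. TNS3 rose by 1.47 at 6 h and 1.33 at 18 h of WNT3A (edgeR adjusted p = 0.011 and 0.0095). After CHIR99021 for 18 h it rose by 1.32 (adjusted p = 0.0039). In a fit of only the 2 groups the WNT3A 6 h call was lost (edgeR adjusted p = 0.29). Without mTeSR1 replicate 1 the WNT3A changes were 1.25 and 1.11 (adjusted p = 0.11 and 0.058), without WNT3A 18 h replicate 2 the later one was 1.23 (0.076), and without mTeSR1 replicate 2 the CHIR99021 change was 1.49 (0.059). FERMT2, the integrin activator kindlin-2, fell by 0.59 after CHIR99021 for 18 h (adjusted p = 0.049), with 89.5 and 77.4 CPM against 125 and 127 CPM in mTeSR1, a call that was lost without any of the 10 libraries (adjusted p = 0.060 to 0.50).

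Among 23 tested matrix proteases and inhibitors, 2 fell after WNT3A for 18 h and 1 after CHIR99021 for 18 h. Over all symbols 1.06% fell for WNT3A and 1.63% for CHIR99021. MMP24, a membrane-anchored metalloprotease, had 36.7 and 50.7 CPM after WNT3A for 6 h, 8.48 and 11.5 CPM after WNT3A for 18 h, 32.2 and 34.6 CPM after CHIR99021 for 6 h, and 23.9 and 16.2 CPM after CHIR99021 for 18 h, against 37.1 and 56.4 CPM in mTeSR1. The WNT3A 18 h libraries lay below all others. MMP24 fell by 2.23 after WNT3A for 18 h (edgeR adjusted p = 0.0095) and by 1.40 after CHIR99021 for 18 h (adjusted p = 0.015). The WNT3A change was -2.02 without WNT3A 18 h replicate 1 (adjusted p = 0.081) and -2.46 without replicate 2 (0.062). The CHIR99021 change was -1.22 without the repeat block (0.089), -1.50 and -1.22 without mTeSR1 replicate 1 and 2 (0.055 and 0.29), and -1.14 without CHIR99021 18 h replicate 2 (0.090). MMP25, a related metalloprotease, fell by 0.77 after WNT3A for 18 h (adjusted p = 0.049), a call lost without any library of WNT3A 18 h, CHIR99021 at either time or mTeSR1 (adjusted p = 0.074 to 0.32).

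Other basement membrane proteins and matrix glycoproteins gave few calls. Of 20 tested basement membrane genes, 1 rose and 2 fell after WNT3A for 18 h, and 1 rose and 1 fell after CHIR99021 for 18 h. Over all symbols 1.04% rose and 1.06% fell for WNT3A, and 1.15% rose and 1.63% fell for CHIR99021. EGFLAM, or pikachurin, which binds dystroglycan, had 8.71 and 5.18 CPM after WNT3A for 18 h and 1.37 and 5.98 CPM after CHIR99021 for 18 h, against 0.209 and 0.113 CPM in mTeSR1 (edgeR adjusted p = 0.016 and 0.022). With so few counts in mTeSR1 no fold is given, and without mTeSR1 replicate 1 or 2 the adjusted p was 0.089 and 0.12 for WNT3A and 0.12 and 0.31 for CHIR99021. Without WNT3A 18 h replicate 1 or 2 it was 0.075 and 0.060. HMCN2, or hemicentin-2, had 7.86 and 9.67 CPM after WNT3A for 18 h and 12.7 and 6.94 CPM after CHIR99021 for 18 h, against 24.6 and 23.3 CPM in mTeSR1 (edgeR adjusted p = 0.034 and 0.042). SMOC2, a calcium-binding matrix protein, had 1.32 and 1.73 CPM after WNT3A for 18 h, against 3.87 and 4.08 CPM in mTeSR1 (edgeR adjusted p = 0.037). Of 29 tested matrix glycoproteins, 1 rose after CHIR99021 for 18 h, THBS2, or thrombospondin-2, with 216 and 149 CPM against 50.8 and 81.4 CPM in mTeSR1 (edgeR adjusted p = 0.020, or 0.10 without the repeat block). THBS2 had a log2 change of 1.20. The calls of HMCN2, SMOC2 and THBS2 were each lost without either mTeSR1 library, with adjusted p of 0.10 to 0.34. For WNT3A, HMCN2 and SMOC2 also lost theirs without either WNT3A 18 h library (adjusted p of 0.14 to 0.22) or either CHIR99021 6 h library (0.074 to 0.082), and SMOC2 without either CHIR99021 18 h library (0.056 and 0.057). For CHIR99021, HMCN2 lost its call without CHIR99021 18 h replicate 2 (0.16), either CHIR99021 6 h library (0.064) or either WNT3A 6 h library (0.060). Without both length-trend libraries the calls of HMCN2 (adjusted p = 0.11 for WNT3A and 0.23 for CHIR99021), SMOC2 (0.15), THBS2 (0.39) and EGFLAM (0.13 and 0.32) were lost, as were those of MMP24 and FERMT2 for CHIR99021 (0.18 each). With the length offset and the block HMCN2 had an adjusted p of 0.054 for WNT3A and 0.10 for CHIR99021. In fits of only the 2 groups, SMOC2 and MMP25 lost their calls for WNT3A, and EGFLAM, HMCN2 and THBS2 theirs for CHIR99021.

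Primitive streak markers rose beside the type I chain changes, 4 of 5 tested after WNT3A for 18 h and 2 of 5 after CHIR99021 for 18 h. Summed primitive streak markers (5 of 8 tested) were 251 to 384 CPM after WNT3A for 6 h, 529 to 588 CPM after WNT3A for 18 h, 66.9 to 68.0 CPM after CHIR99021 for 6 h, and 158 to 581 CPM after CHIR99021 for 18 h, against 2.93 to 3.46 CPM in mTeSR1. SP5 was the largest part of this sum in every treated library, so the sum does not show each marker. After CHIR99021 for 6 h SP5 had 61.0 and 57.4 CPM, and TBXT 1.24 and 1.56 CPM. MIXL1 had 1.08 and 3.61 CPM in that group, and EOMES 3.89 and 2.54 CPM. CHIR99021 18 h replicate 1 had the lower sum of its group. Its COL1A2 level, 103 CPM, was the lower of the group, and its COL1A1 level, 84.7 CPM, the higher. In replicates 1 and 2 of CHIR99021 18 h, TBXT had 3.52 and 49.2 CPM and MIXL1 7.4 and 84.3 CPM. EOMES had 11.2 and 74.8 CPM, SP5 135 and 370 CPM, and TBX6, the other tested marker, 0.835 and 1.35 CPM. The CHIR99021 18 h values thus come from 2 libraries that were unlike in these markers, and the source of that difference was not tested. Summed mesenchyme and fibroblast markers (7 of 10 tested) were 175 to 205 CPM after WNT3A for 18 h and 198 to 268 CPM after CHIR99021 for 18 h, against 359 to 403 CPM in mTeSR1, and DCN and DPT were at 0 counts in all libraries. Most of that sum was THY1, which pluripotent cells express too. Of the 7 tested, edgeR called 2 lower after WNT3A for 18 h, where 1.06% of all symbols fell. It called 1 higher and 1 lower after CHIR99021 for 18 h, where 1.15% rose and 1.63% fell. Their log2 changes were 3 positive and 4 negative for WNT3A (median -0.16), and 4 and 3 for CHIR99021 (median 0.28). Summed endoderm markers (4 of 8 tested) were 7.11 to 12.4 CPM after WNT3A for 18 h and 6.56 to 11.4 CPM after CHIR99021 for 18 h, against 2.10 to 2.14 CPM in mTeSR1. Neural ectoderm markers (6 of 8 tested) summed to 270 to 419 and 243 to 264 CPM, against 460 to 477 CPM in mTeSR1. Trophoblast markers (3 of 8 tested) summed to 30.7 to 56.3 and 7.04 to 48.4 CPM, against 14.2 to 15.6 CPM. Of these, CDX2, which streak cells express too, had 50.4 and 25.5 CPM after WNT3A for 18 h and 0.955 and 41.4 CPM after CHIR99021 for 18 h, against 0.157 and 0 CPM in mTeSR1. KRT7 averaged 4.01 and 4.74 CPM, against 11.5 CPM, and GABRP 0.981 and 1.19 CPM, against 3.02 CPM. The median log2 change of the tested trophoblast markers was -1.51 for WNT3A and -0.98 for CHIR99021 at 18 h, with 1 called lower for CHIR99021. The endothelial and blood markers (3 of 8 tested) summed to 268 to 322 and 275 to 322 CPM, against 148 to 285 CPM. NES made up most of the neural sum and KDR most of the endothelial one, and no marker of either list was called by edgeR at 18 h, with 0 and 1 of each list at an unadjusted p under 0.05 for WNT3A and for CHIR99021. In bulk RNA, fewer cells of a type and less RNA per cell cannot be told apart, and the part of these markers in the collagen values was not tested.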

How the data were processed

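The authors deposited 1 table of estimated counts per Ensembl gene for the 10 libraries. Per the submitters' processing notes it was made with Salmon 1.8.0 and GRCh38. The strand setting is not stated there.

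The 37951 identifiers were summed to 35940 symbols and rounded to whole numbers. CPM were computed on TMM-scaled totals, and lengths came from GENCODE 29. edgeR 4.0.16 (limma 3.58.1, R 4.3.3) fitted a robust quasi-likelihood model to all 10 libraries after filterByExpr (min.count 10, min.total.count 15) had kept 15251 symbols and 68 members. A block for biological repeat was in the comparisons that involve CHIR99021 at 18 h, whose libraries are both of repeat 2, and in no other. P-values were adjusted by Benjamini-Hochberg over all symbols tested, at 0.05, and intervals are 95%. Within-repeat differences used log2(CPM + 0.1).

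The labels mark shared biological repeats, and same-numbered libraries deviated together (correlations across genes of 0.261 to 0.595 over 6 pairs). Replicates differed by more than counting noise (chi-square per degree of freedom 12.6 to 106).

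Alternatives were DESeq2 1.42.0, other scalings, filters and sample sets, the block, a transcript-length offset and leaving out libraries. Leaving out both length-trend libraries together was chosen after seeing the data. Tested on simulated data for WNT3A at 18 h against mTeSR1 (15057 symbols), the fit recovered 54% of 2-fold and 90% of 4-fold changes. For CHIR99021 at 18 h (15016 symbols) these were 47.5% and 85%. Unchanged symbols called were 5 and 13. The simulation took its spread from the fit with the block and held no repeat effect and no length trend. Recovery in the real data, which have both, may be lower.

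The members and lists were chosen with earlier results of these data known. Named members are those called in any comparison, the 3 highest per kb in each role, fixed chains of known trimers and receptors, and members with an unadjusted p under 0.001. List genes are those called. Some other named members are marked as chosen after their values were seen. Members named for level, upstream matches or repeat differences, and single cell type markers such as PRDM14, are not so marked. A member is counted but not reported here or drawn. Floors of 3 counts cover counting error only.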

Additional observations from a re-analysis of the deposited data

Results flagged for a closer look

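MMP24 changed more after 18 h of WNT3A than after 6 h, which is a difference between times under the same treatment. It had 8.48 and 11.5 CPM at 18 h, against 36.7 and 50.7 CPM at 6 h, a log2 change of -2.13 (edgeR adjusted p = 0.044). The within-repeat values were -2.10 in repeat 1 and -2.13 in repeat 2, and the call was lost in 9 of 21 alternatives. For CHIR99021 the log2 change between the same times was -0.94 (edgeR adjusted p = 0.26), with 23.9 and 16.2 CPM at 18 h against 32.2 and 34.6 CPM at 6 h. The difference between both agents at 18 h was 0.82 for CHIR99021 minus WNT3A (edgeR adjusted p = 1.00).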

How the results depend on the processing

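For WNT3A 18 h over mTeSR1, where 2 members were called, the count was 5 with the replicate block, 1 with RLE scaling, upper-quartile scaling, the identifier with the highest total, only the 2 groups compared or both length-trend libraries left out, 5 with no low count filter, 6 by DESeq2 and 10 with the length offset and replicate block. Leaving out 1 library gave 0 to 2. For CHIR99021 18 h over mTeSR1, where 3 were called, it was 5 with no low count filter, 8 with the length offset and replicate block and with only the 2 groups compared, 1 without both length-trend libraries and 9 by DESeq2, and leaving out 1 library gave 0 to 4. For WNT3A 18 h over 6 h, where 0 were called, it was 3 with the replicate block, 2 with no low count filter, 5 with the length offset and replicate block and 4 by DESeq2. For CHIR99021 18 h over 6 h, where 0 were called, it was 1 without both length-trend libraries and 1 by DESeq2. The counts of the other 4 comparisons were 0 under every alternative run. The cause of these shifts was not tested.

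Of 1358 alternative values of 66 log2 changes, 1176 kept direction and side of the threshold, 121 lost a call, 56 gained one and 5 reversed. Leaving out 1 library gave FN1 -0.11 (without mTeSR1 replicate 1) to 1.43 for WNT3A 18 h over mTeSR1, -0.28 (without WNT3A 6 h replicate 2) to 1.64 for WNT3A 6 h over mTeSR1, and -1.36 to 0.18 (without WNT3A 6 h replicate 2) for CHIR99021 6 h over WNT3A 6 h, which was also 0.18 without both length-trend libraries. ITGA6 reversed to 0.03 for CHIR99021 18 h over mTeSR1 without both. None of these passed the test. The length offset without a block was not run for comparisons with CHIR99021 at 18 h. A lone library left in a group is assumed to vary like the other groups. Without both length-trend libraries, CHIR99021 18 h and mTeSR1 share no repeat.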
